A study of Mus musculus with 12 samples.

Results

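Described here are 97 genes whose transcripts were high in uninjured muscle preparations and had not come back to that level 21 days after injury. They were chosen from the deposited table of TPM (transcript abundance, reads corrected for transcript length and library size) by one rule: the lowest of the 4 libraries from before injury was at least 5 TPM and at least 1.5 times the highest of the 8 libraries from days 7 and 21. The rule took 97 of 30154 rows, or 1.14% of the 8538 rows that reached 5 TPM in every library from before injury. Since the rule used the day 0 levels against the later levels, that contrast is described below and is not tested.

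The libraries were made from cells sorted as muscle stem cells from the tibialis anterior, gastrocnemius and quadriceps of C57BL/6J mice aged 2-3 months. Mice were wild type or Sestrin1,2 knockout; the labels do not say whether the knockout was in the whole body or in chosen cells, and they do not name the kind of injury, the sex or a batch. Each genotype was sampled before injury (day 0) and 7 and 21 days after it, with 2 libraries in each of the 6 groups and 12 in all. The day 0 mice of both genotypes were uninjured, and every day 7 and day 21 library came from injured muscle, so day after injury and injury itself are one factor here.

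Sestrins are stress-induced proteins that restrain the growth kinase complex mTORC1. Muscle stem cells lie quiescent beneath the basal lamina of the fibre, are marked by the transcription factor PAX7, and are held in quiescence by Notch signalling through factors such as HES1. Schwann cells are the glia of peripheral nerve, including the nerve branches inside muscle. Their myelin genes are driven by SOX10 with EGR2 and POU3F1, and in textbook accounts a Schwann cell that loses contact with its axon lowers those genes and raises them again as it remyelinates.

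The working description of the genes as resting genes of muscle stem cells was checked against marker lists. None of the 9 muscle stem cell markers met the rule. Of 46 genes listed as markers of quiescent satellite cells, 42 reached 5 TPM at day 0. Of these 42, 6 (14.3%) were lower at day 7 by the same ratio, against 6.24% of all 8538 rows at 5 TPM, and 2 (4.76%), Hes1 and Nrn1, were members, against 1.14%. Of 8 glial markers, 7 reached 5 TPM at day 0, all 7 of these were lower at day 7 by the same ratio, and 4 were members: Sox10, Mbp, Cdh19 and Foxd3. The remaining marker, Ngfr, went the other way, from 1.86 to 2.14 TPM at day 0 to 5.63 to 8.49 TPM at day 7. Many of the leading members, Cntf, S100b, Ncmap, Pou3f1, Gfra3 and Gjb1 among them, are known from Schwann cells. With members from both the quiescence and the glial list, the set is called here by its rule and its leading genes, Cntf and the myelin genes. In sorted bulk samples such as these, fewer cells of a type and less RNA per cell cannot be told apart.

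Sorted preparations also held transcripts of other cell types, whose levels moved with day. Pax7 was low in all 12 libraries, from 3.14 to 19.2 TPM. The summed TPM of the 8 glial markers was 1794 to 2272 before injury, 261.7 to 372.2 on day 7 and 679.5 to 1042 on day 21, so the glial list, 4 of whose 8 genes are members, was lower after injury. The smooth muscle and pericyte list summed to 6737 to 10059 TPM at day 0, 2660 to 3967 at day 7 and 3544 to 5295 at day 21. Acta2 and Tagln held most of that sum, with means of 5873 and 1954 TPM at day 0 and 3037 and 969 at day 21. The rest were mixed from day 0 to day 21. Means were higher for Pdgfrb (76.7 to 126 TPM), Notch3 (73.9 to 85.3) and Rgs5 (28.0 to 35.3). Kcnj8 was near even (2.54 to 2.56), and Myh11 (304 to 245) and Cspg4 (42.8 to 40.1) were lower. The 9 muscle stem cell markers summed to 655.1 to 1041 TPM at day 0, 971.1 to 1265 at day 7 and 1311 to 1720 at day 21. They did not move as one at day 7. Means of Sdc4 (174 to 79.6 TPM), Cd34 (119 to 82.2) and Calcr (11.5 to 10.5) were lower than at day 0, and the others were higher. By day 21 every marker had a mean above day 0. As a ratio to day 0, muscle fibre markers moved most, from 68.7 to 112.9 TPM at day 0 to 2393 to 5023 at day 7 and 308.4 to 698.5 at day 21. Markers of fibro-adipogenic cells, connective tissue progenitors of muscle, summed to 5511 to 7878 TPM at day 0, 11918 to 13978 at day 7 and 9026 to 12563 at day 21. Tenocyte markers summed to 5144 to 5296 TPM at day 0, 4209 to 5171 at day 7 and 12310 to 13611 in 3 day 21 libraries; the fourth, wild type replicate 2, stood apart at 4897. The part of these shifts in the members' levels was not tested. The libraries held 28396862 to 38950614 estimated counts. Sesn2, a targeted gene, was at 27.6 and 30.7 TPM in wild type and 2.1 and 2.6 TPM in knockout at day 0, but at day 21 it was at 3.4 and 34.1 TPM in the libraries labelled wild type and at 3.9 and 45.7 TPM in those labelled knockout. The day 21 genotype labels are thus in doubt, and day 21 summaries here average over both genotypes.

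**Figure D1:**
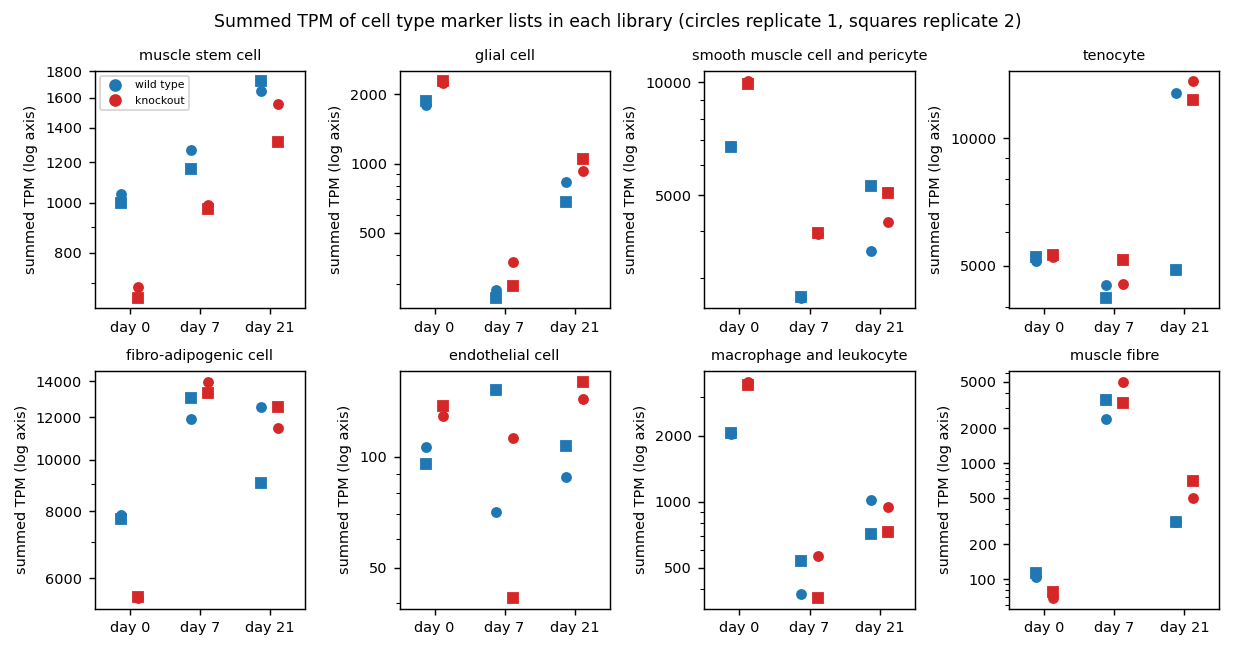
Summed TPM (log axis) of 8 cell type marker lists in each of the 12 libraries, by day, with wild type in blue and knockout in red as labelled; circles are replicate 1 and squares replicate 2. The glial list is highest at day 0 (1794 to 2272 TPM) and lowest at day 7, whereas the muscle stem cell list is highest at day 21 (1311 to 1720 TPM).

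A pair of short promoter windows is shown because SOX10 and POU3F1 were themselves members and the SOX10 and EGR families are known to act on myelin genes. The 250 bases before the start site were read from RefSeq on GRCm38.p6 for 69 of the 97 members, in 86 entries, and searched on both strands for the letters ACAAAG (a SOX10 core), GTGGGCG (an EGR core), GGAATG (a TEAD core) and ATTTGCAT (a POU octamer), which do not overlap one another in the matches printed. Both the SOX10 and the EGR core were present in 2 member entries (2.33%) and in 249 of all 32851 entries (0.758%). The 2 entries are those of Gjb1, a gap junction protein of myelinating Schwann cells, at chrX:101383482-101383731 on the plus strand, and Kcnmb4, an accessory subunit of a calcium-activated potassium channel, at chr10:116473524-116473773 on the minus strand. Each is written 5′ to 3′ on the gene's strand, with the SOX10 and EGR cores in capitals.
Gjb1: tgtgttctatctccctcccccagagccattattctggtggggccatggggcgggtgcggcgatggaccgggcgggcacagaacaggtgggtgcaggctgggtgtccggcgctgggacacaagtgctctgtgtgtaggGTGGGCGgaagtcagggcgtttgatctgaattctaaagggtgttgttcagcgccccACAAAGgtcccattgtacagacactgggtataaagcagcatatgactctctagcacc
Kcnmb4: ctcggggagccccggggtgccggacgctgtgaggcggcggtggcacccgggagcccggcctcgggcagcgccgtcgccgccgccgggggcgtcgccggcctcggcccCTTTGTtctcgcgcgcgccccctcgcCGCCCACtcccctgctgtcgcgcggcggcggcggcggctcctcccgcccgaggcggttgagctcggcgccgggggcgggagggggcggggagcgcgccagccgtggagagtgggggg
In Gjb1 the EGR core begins 113 bases and the SOX10 core 57 bases before the start, both on the gene's strand, while in Kcnmb4 the SOX10 core at 143 bases and the EGR core at 117 bases lie on the opposite strand. Taken singly, the SOX10 core was in 15.1% of member entries and 16.5% of all entries, the EGR core in 12.8% and 7.02%, the TEAD core in 16.3% and 12.6%, and the POU octamer in 1.16% and 1.6%. Member windows had a median GC content of 57% against 52.4% for all. A match is only a run of letters and shows no binding.

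The ratio that defines the set, the lowest day 0 level over the highest later level, ran from 1.5016 to 5.27 with a median of 1.81, and 28 of the 97 genes had a ratio of at least 2. Mean day 0 levels ran from 6.20 to 2745 TPM with a median of 42.3, and 24 genes were at 100 TPM or more in every day 0 library. At day 7 the members stood at 2.13% to 60.6% of their day 0 mean, with a median of 22.7%, and at day 21 at 8.88% to 56.8%, with a median of 39.9%. At day 21, 84 of the 97 were under 0.5 of their day 0 level. Just inside the ratio were Mgst3 (1.517) and 5730508B09Rik (1.506), and just outside were Myl9 (1.4995), Cyp2f2 (1.498) and Lrrn3 (1.497). The 97 made up 18.2% of the 533 genes that were lower at day 7 by the same ratio and 81.5% of the 119 that were lower at day 21. In the deposited batch-corrected log2-like values, all 97 still had every day 0 library above every later library. The genes lay on 20 chromosomes, 96 of the 97 were annotated as protein coding and the other, Gm14113, as a processed pseudogene. Together they took 1.20% to 1.497% of the TPM listed at day 0, 0.264% to 0.327% at day 7 and 0.494% to 0.540% at day 21.

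**Figure D2:**
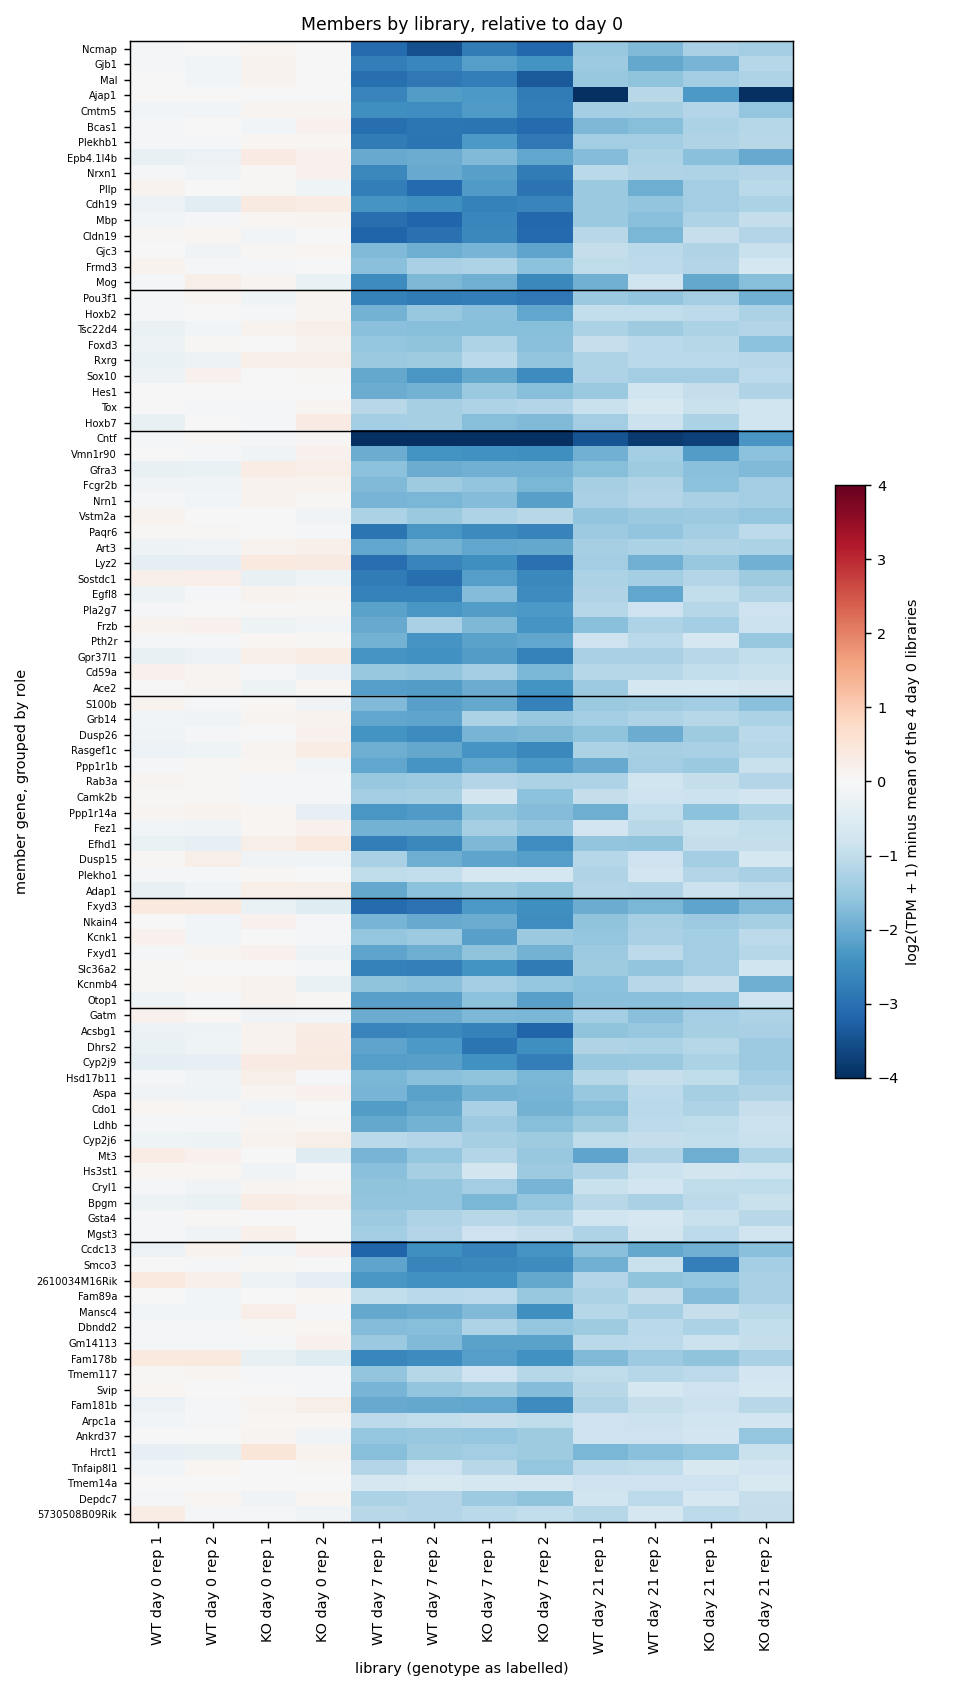
Heat map of 95 of the 97 members (rows, grouped by role with black lines between groups) in the 12 libraries (columns), coloured by log2(TPM + 1) minus the mean of the 4 day 0 libraries. All day 7 and day 21 columns are blue, that is below day 0, and the day 7 columns are the darker in most rows; the Ajap1 row varies most among the day 21 columns.

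The levels of single genes are given below for wild type replicates 1 and 2 and then knockout replicates 1 and 2, in that order, on each day. The largest ratio belonged to Cntf, which encodes ciliary neurotrophic factor, a cytokine that Schwann cells store and that supports motor neurons. Cntf (chr19:12763660-12765632 on GRCm38) was at 42.4, 46.2, 42.9 and 46 TPM at day 0, 1.34, 1.67, 0.220 and 0.550 TPM at day 7 and 3.11, 2.21, 2.41 and 8.04 TPM at day 21. The 3 days did not overlap, and the knockout replicate 2 library was the highest at day 21. Its remaining level was 2.13% of the day 0 mean at day 7 and 8.88% at day 21, the lowest of all members on both days. Of Cntf's exon bases, 78.9% are shared with Zfp91 on the same strand, so the authors' estimates had to divide those reads between the pair.

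Proteins of the myelin membrane and of cell contact formed a group of 16, with medians of 14.7% of the day 0 level at day 7 and 36.1% at day 21. Ncmap, a membrane protein of noncompact myelin, was at 160, 165, 175 and 169 TPM at day 0, 19.1, 13.7, 23 and 18 TPM at day 7 and 57.4, 48.3, 67.4 and 65.1 TPM at day 21. Mbp, myelin basic protein, was the most abundant of the 16, at 1124, 1167, 1286 and 1319 TPM at day 0, 149, 134, 198 and 138 TPM at day 7 and 440, 384, 517 and 627 TPM at day 21. In both genes the days formed 3 separate ranges, with day 21 between the other two. Gjb1 was far less abundant, at 12.7, 12.2, 14.9 and 13.5 TPM at day 0, 1.08, 1.35, 2.11 and 1.72 TPM at day 7 and 4.18, 2.46, 2.97 and 5.42 TPM at day 21. Mal and Pllp, small tetraspan proteins of myelin, were left at 11.6% and 11.7% of day 0 at day 7 and at 36.2% and 34.3% at day 21. Cldn19, a claudin of Schwann cell junctions, stood at 11.2% and 41.7%, and Plekhb1, a pleckstrin homology protein of membranes, at 15.3% and 41.4%. Ajap1, a protein of adherens junctions, was close to even at day 0, at 106, 105, 106 and 103 TPM, and at day 7, at 16.1, 21.5, 20.4 and 14.3 TPM. At day 21 its libraries disagreed widely, at 3.29, 48.2, 20.4 and 3.79 TPM, with both high and low values under each genotype label.

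Between day 7 and day 21, 14 of these 16 genes rose and 2 did not pass the test, with a median log2 fold change of 1.32 (edgeR's quasi-likelihood test, Benjamini-Hochberg adjusted p under 0.05 over all 15890 genes tested). Over all genes, 28.4% were called higher and 28.4% lower in that comparison, the shares to set beside each count of risen members below. Mbp rose by a log2 fold change of 1.75 (SE 0.117, adjusted p = 1.39e-06) and Cldn19 by 1.98 (SE 0.189, adjusted p = 1.13e-05). Bcas1, a protein known from myelin-forming cells, rose by 1.44 (SE 0.0921, adjusted p = 1.11e-06). The 2 that did not pass were Ajap1, at 0.04 with an SE of 0.755, and Epb4.1l4b, a FERM domain protein, at 0.31 with an SE of 0.134.

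**Figure D3:**
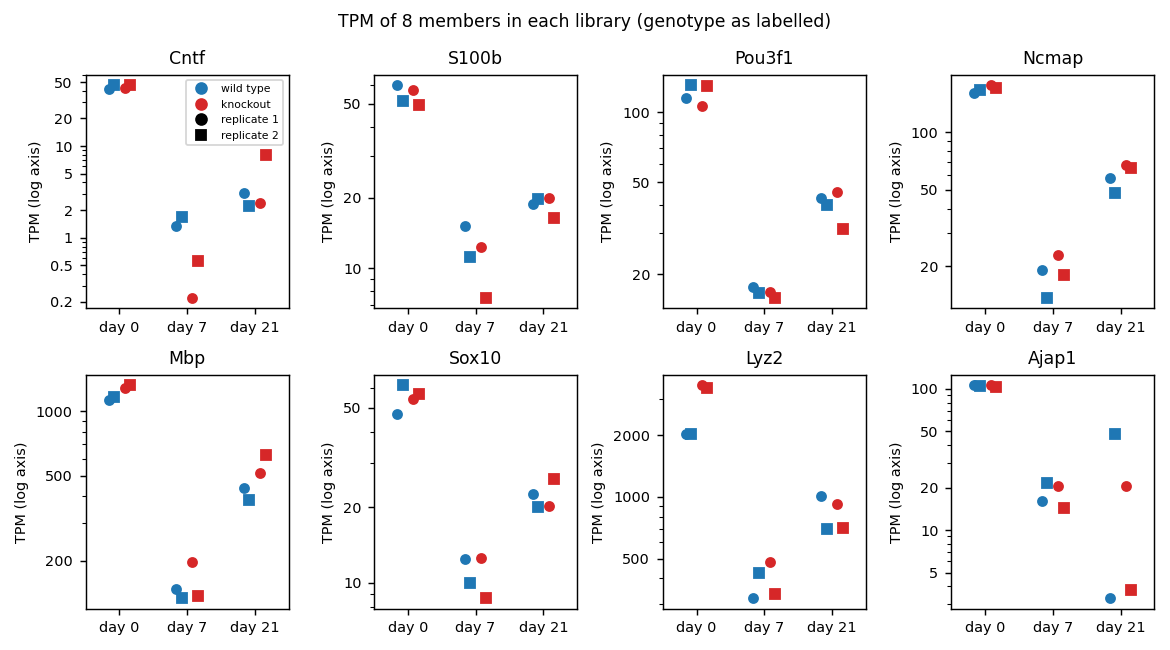
TPM (log axis) of 8 members in each library by day, with wild type in blue, knockout in red, replicate 1 as circles and replicate 2 as squares. Cntf, S100b, Pou3f1, Ncmap, Mbp, Sox10 and Lyz2 are highest at day 0, lowest at day 7 and between them at day 21; Ajap1 splits at day 21, from 3.29 to 48.2 TPM.

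The 9 transcription factors stood at a median of 28.2% of day 0 at day 7 and 40.6% at day 21. Sox10, the factor that specifies and maintains peripheral glia, was at 47, 61.2, 53.9 and 56.6 TPM at day 0, 12.4, 9.97, 12.5 and 8.7 TPM at day 7 and 22.5, 20.1, 20.2 and 26 TPM at day 21. Pou3f1, which acts as Schwann cells begin to myelinate, was at 116, 131, 107 and 130 TPM at day 0, 17.7, 16.7, 16.8 and 15.8 TPM at day 7 and 42.5, 40.0, 45.2 and 31.4 TPM at day 21. Neither gene's days overlapped. Hes1, a Notch target and one of the listed quiescence markers, was at 229, 229, 235 and 227 TPM at day 0, 57.3, 61.7, 81.5 and 70.1 TPM at day 7 and 81.4, 131, 119 and 98.7 TPM at day 21, where the lowest library lay just under the highest of day 7. From day 7 to day 21, 8 of the 9 rose, with a median log2 fold change of 0.78: Pou3f1 by 1.33 (SE 0.135), Sox10 by 1.09 (SE 0.145) and Hes1 by 0.82 (SE 0.130). The exception was Foxd3, a neural crest factor, at 0.49 (SE 0.202, adjusted p = 0.0599 by edgeR). The Hox genes Hoxb2 and Hoxb7, the retinoid receptor gene Rxrg and Tox were among those that rose, by 0.37 to 1.11.

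Secreted proteins and receptors were 17, left at a median of 18.8% of day 0 at day 7 and 38.6% at day 21. The most abundant member of the whole set was in this group: Lyz2, lysozyme, at 2027, 2043, 3508 and 3401 TPM at day 0, 320, 424, 481 and 336 TPM at day 7 and 1010, 698, 928 and 706 TPM at day 21. Lyz2 is one of 8 listed macrophage and leukocyte markers, 7 of which are in the table. At day 0 the other 6 were low: Cd68 ran from 3.30 to 4.52 TPM, Ptprc, Csf1r and C1qa were at no more than 0.0422, 0.346 and 0.297 TPM, Cd3e was listed at 0 in all 4 libraries, and C1qb was listed at 0 in both wild type libraries and at 0.891 and 0.39 TPM in the knockout ones. The 7 markers, Lyz2 included, summed to 2031 to 3514 TPM at day 0, 364.3 to 565.8 TPM at day 7 and 714.2 to 1017 TPM at day 21. At day 7, where Lyz2 was lowest, Cd68 was higher, at 8.41 to 18.9 TPM, and so was C1qb, at 30.7, 59.1, 50.8 and 14.2 TPM. Lyz2 shares 95.8% identity over 96% of its transcript with Lyz1, and reads may be divided between these copies. Art3, of the ADP-ribosyltransferase family, was at 772, 802, 964 and 1019 TPM at day 0, 210, 236, 210 and 212 TPM at day 7 and 351, 368, 381 and 365 TPM at day 21.

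Receptors in that group included Gfra3, the receptor for artemin, at 21.4, 22.1, 33.4 and 31.9 TPM at day 0, 7.79, 6, 6.34 and 6.25 TPM at day 7 and 7.46, 9.42, 7.76 and 7.06 TPM at day 21, so its later days overlapped. Gpr37l1, an orphan receptor of glia, was left at 17.8% at day 7 and 43.4% at day 21, and Fcgr2b, the inhibitory receptor for IgG, at 30.3% and 36.8%. Among secreted proteins, Pla2g7, which degrades platelet-activating factor, was at 117, 122, 126 and 126 TPM at day 0, 26.9, 23.9, 25.4 and 24.2 TPM at day 7 and 54.7, 68.8, 55.2 and 68.3 TPM at day 21. Sostdc1, which binds BMP ligands and inhibits WNT signalling, stood at 14.2% and 38.6%, and Frzb, another WNT antagonist, at 23.1% and 37.7%. Of the 17, 16 rose from day 7 to day 21, with a median log2 fold change of 1.18. Cntf had the highest value, 2.40 (SE 0.385, adjusted p = 0.000443 by edgeR), though on the log2(TPM + 1) scale it was 1.23. Pla2g7 had the smallest adjusted p of all members, at 1.33 (SE 0.0808, adjusted p = 8.64e-07 by edgeR). Gfra3 rose by only 0.33 (SE 0.112, adjusted p = 0.027), a call lost in 11 of the alternative settings, among them without wild type day 7 replicate 2 (0.24), either knockout day 7 library, knockout day 21 replicate 1 or wild type day 21 replicate 2. Vstm2a, a secreted immunoglobulin domain protein, was the one that did not pass, at -0.21 (SE 0.0990, adjusted p = 0.0911).

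Proteins of signalling inside the cell were 14, at a median of 23.2% of day 0 at day 7 and 42.1% at day 21. S100b, a calcium-binding protein widely used to stain Schwann cells, was at 60.0, 51.5, 57 and 49.4 TPM at day 0, 15.1, 11.2, 12.4 and 7.5 TPM at day 7 and 18.8, 19.7, 19.9 and 16.3 TPM at day 21. Rasgef1c, an exchange factor for small GTPases, was at 88.1, 92.6, 114 and 128 TPM at day 0, 26.1, 24.4, 19.5 and 16.7 TPM at day 7 and 42.5, 41.4, 42.2 and 46.3 TPM at day 21. Neither gene's days overlapped, and 12 of the 14 rose from day 7 to day 21, Rasgef1c by 1.08 (SE 0.0740) and S100b by 0.78 (SE 0.166). Plekho1, an adaptor with a pleckstrin homology domain, was the only member called lower, by -0.31 (SE 0.118, adjusted p = 0.0448 by edgeR). Its levels were 51.3, 53, 66.6 and 64.7 TPM at day 7 and 45.3, 61.3, 45.9 and 42.4 TPM at day 21, which overlap, and 17 alternative settings lost the call, 11 of which left out one library. Camk2b, a calmodulin-dependent kinase subunit, did not pass, at 0.44 (SE 0.176, adjusted p = 0.0555).

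Ion and solute transport was represented by 7 genes. Fxyd3, a regulator of the sodium pump, was at 247, 246, 157 and 134 TPM at day 0, 21.6, 23.7, 37.3 and 33.9 TPM at day 7 and 46.7, 52.9, 43 and 55.4 TPM at day 21, with no overlap between days. Its relative Fxyd1 was more abundant, at 711, 811, 856 and 652 TPM at day 0 and 273, 360, 285 and 339 TPM at day 21. Slc36a2, a proton-coupled carrier of small amino acids, was left at 12.2% at day 7 and 39.1% at day 21 and rose between them by 1.71 (SE 0.140). In all, 6 of the 7 rose, with a median log2 fold change of 0.70. Kcnmb4, whose promoter window is shown above, did not pass, at 0.15 (SE 0.227, adjusted p = 0.596), with 4.66, 4.41, 5.54 and 4.87 TPM at day 7 and 4.49, 6.94, 7.98 and 3.39 TPM at day 21. Kcnk1, a potassium channel subunit, rose by 0.46 (SE 0.163), a call lost in 10 settings, among them without knockout day 7 replicate 1, either wild type day 7 library, knockout day 21 replicate 2 or wild type day 21 replicate 2. Fxyd3 shares 42.5% of its exon bases with Lgi4 on the other strand, and the libraries were not described as stranded.

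Metabolism and detoxification held 16 genes, at a median of 27.9% of day 0 at day 7 and 40.3% at day 21. Acsbg1, an acyl-CoA synthetase for very long chain fatty acids, was at 103, 105, 133 and 151 TPM at day 0, 18.7, 19.4, 18 and 12.2 TPM at day 7 and 39.3, 42.2, 48.1 and 49.1 TPM at day 21. Its days did not overlap, and both knockout libraries lay above both wild type libraries at day 0. Ldhb, a lactate dehydrogenase subunit, was left at 29.3% and 47.2%, Aspa, which splits N-acetylaspartate, at 25.3% and 40.7%, and Gatm, of creatine synthesis, at 26.5% and 37.6%. From day 7 to day 21, 13 of the 16 rose, with a median of 0.77: Acsbg1 by 1.54 (SE 0.106) and Dhrs2, a short-chain dehydrogenase, by 1.55 (SE 0.225). The metal-binding protein gene Mt3 was at 0.01 (SE 0.230) and the glutathione transferase gene Mgst3 at 0.20 (SE 0.0940), and neither passed, nor did the sulfotransferase gene Hs3st1. Gsta4, the other glutathione transferase in the set, rose by 0.51 (SE 0.124).

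The 18 other members were left at a median of 32.5% at day 7 and 45.3% at day 21, the highest of any group. Ccdc13, a coiled-coil protein with the second highest ratio of all members, was at 16.9, 22.3, 18.6 and 22.5 TPM at day 0, 1.29, 2.86, 2.28 and 3.07 TPM at day 7 and 5.61, 4.04, 4.58 and 5.52 TPM at day 21. Of these 18 genes, 12 rose from day 7 to day 21. Among the 6 that did not pass were the membrane protein genes Tmem14a, at -0.06 (SE 0.113), and Tmem117, at 0.29 (SE 0.148), and Fam89a, at -0.16 (SE 0.194). Tmem14a, with the highest remaining level of all members at day 7, was at 8.86, 9.29, 8.56 and 8.74 TPM then and at 7.85, 7.75, 7.86 and 9.21 TPM at day 21.

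**Figure D4:**
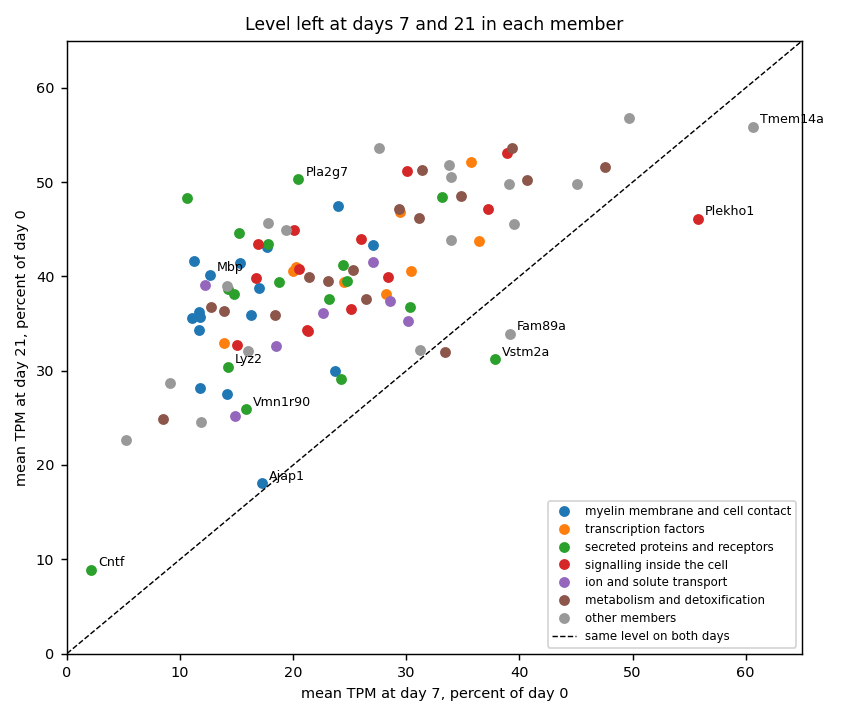
Mean TPM of each member at day 7 (x axis) and day 21 (y axis), each as a percent of its day 0 mean over 4 libraries, coloured by role; the dashed line marks the same level on both days. Of the 97 points, 92 lie above the line and 5 below it, and Cntf is the lowest on both axes.

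Over all 97 members, 81 rose and 1 was lower from day 7 to day 21, and 15 did not pass. This is 84.5% called, where 56.8% of all genes tested were called, and the median log2 fold change was 0.82 among members and 0.008 among all genes. In 60 members all 4 day 21 libraries lay above all 4 day 7 libraries, where 18.1% of all genes did so. In none of the members did all 4 lie below, where 25.1% of all genes did. The 2 day means do not rest on the doubted day 21 labels, but the spread comes from the 6 labelled groups. With one mean per day and no genotype, 79 members rose and none was called lower, where 46.1% of all genes were called, and Gfra3 and Plekho1 were among the calls lost. Genes that had come back to the day 0 range by day 21 were removed by the rule, and of the 436 that were lower at day 7 by the same ratio but were not members, 423 rose, with a median of 1.18. The rule thereby bounds how far members can rise, and the 2 counts are not independent of it. With a log2 change of 1 or more also required, 42 members passed, and 20.3% of all genes did.

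At day 0, 7 of the 97 members were higher and 4 lower in the knockout (edgeR, adjusted p under 0.05), or 11.3%, where 27.4% of all genes were called. Fitted on the 4 day 0 libraries alone, 21 were higher and 15 lower, 36 in all, where 49.5% of all genes were called. A gene enters the set through its lowest day 0 library, which favours genes that are even across the genotypes. Cdh19 (chr1:110888326-110977584 on GRCm38), a cadherin of Schwann cells and their precursors, was higher by 0.64 (SE 0.127, adjusted p = 0.00538), with 2 knockout libraries at 176 and 170 TPM against 117 and 103 TPM. A pair of fatty acid epoxygenase genes of the cytochrome P450 family was higher too, Cyp2j9 by 0.62 (SE 0.1245) and Cyp2j6 by 0.33 (SE 0.0857). Also higher were Gfra3 by 0.53 (SE 0.151), Gpr37l1 by 0.47 (SE 0.130) and Rasgef1c by 0.37 (SE 0.102). In all 7, both knockout libraries lay above both wild type libraries; over the whole set 47 members were higher and 18 lower without overlap, where 40.5% and 31% of all genes were.

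Lower in the knockout at day 0 was Fxyd3, at 146 ± 16.7 TPM (SD, n = 2) against 247 ± 0.644 TPM (SD, n = 2), a log2 fold change of -0.69 (SE 0.112, adjusted p = 0.00216 by edgeR). Fam178b was lower by -0.69 (SE 0.186, adjusted p = 0.0215 by edgeR) and Sostdc1 by -0.51 (SE 0.169, adjusted p = 0.0469 by edgeR). Bcas1 was called lower on counts, at -0.51 (SE 0.124, adjusted p = 0.0129 by edgeR), but its TPM overlapped, at 89.3 ± 12.2 in the knockout and 85 ± 2.08 in wild type, and on the log2(TPM + 1) scale the sign turned, to 0.06. The sign for Bcas1 thus depends on the scale, and why was not tested. Lyz2 did not pass, at 0.71 (SE 0.250, adjusted p = 0.0612 by edgeR), although its TPM did not overlap between genotypes.

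Marker lists also differed between the genotypes at day 0. The glial list summed to 1794 and 1861 TPM in wild type and 2231 and 2272 TPM in the knockout, and the muscle stem cell list to 1041 and 1000 TPM and to 687.7 and 655.1 TPM. Smooth muscle markers summed to 6750 and 6737 TPM in wild type and to 10059 and 9875 TPM in the knockout. Red blood cell markers summed to 3122 and 3129 TPM in wild type and to 782.1 and 742.5 TPM in the knockout, and epidermal and sebaceous markers to 321.1 and 340.7 TPM and to 95.4 and 87.0 TPM. The part of these in the 11 calls was not tested. With one library left out, the count of 11 is given with the share of all genes called in the same fit. It was 3 without wild type day 0 replicate 1 (10.9%), 3 without wild type day 0 replicate 2 (12.3%), 6 without knockout day 0 replicate 1 (15.3%) and 4 without knockout day 0 replicate 2 (10.1%). It was 17 without wild type day 21 replicate 1 (31.3%) or replicate 2 (31.4%), and 20 with day 21 left out altogether (38.9%). Gfra3, Gpr37l1, Fam178b, Bcas1 and Sostdc1 each lost the call when any one of the 4 day 0 libraries was left out, Sostdc1 also without either wild type day 7 library. Cyp2j6 and Rasgef1c lost it without knockout day 0 replicate 2 or either wild type day 0 library, Cyp2j9 without wild type day 0 replicate 1 and Cdh19 without wild type day 0 replicate 2.

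At day 7, Grb14 (chr2:64912476-65024987 on GRCm38), an adaptor that inhibits insulin receptor signalling, was the only one of the 97 members called, where 1.76% of all genes were. It was at 10.2 ± 1.48 TPM (SD, n = 2) in the knockout and 5.89 ± 0.187 TPM (SD, n = 2) in wild type, higher by 0.83 (SE 0.147, adjusted p = 0.0242 by edgeR). That call was lost in 9 settings, with an adjusted p as high as 0.223: without any one of the 4 day 0 libraries, without knockout day 7 replicate 1, without either wild type day 7 library, in a fit of day 7 alone, and with a log2 change of 1 or more required. No member was then called. The count, again with the share of all genes in the same fit, was 8 without wild type day 21 replicate 1 (3.68%) or replicate 2 (3.76%) and 3 without knockout day 7 replicate 2 (0.728%). It was 2 without knockout day 21 replicate 1 (2.38%) or replicate 2 (2.39%), and 13 with all day 21 libraries left out (7.46%). At an unadjusted p under 0.05, 26 members passed, and 14.3% of all genes did. By the day 21 labels, edgeR called 0 of 97 members, where 0.0126% of all genes were called. At an unadjusted p under 0.05 there were 7, where 14.2% of all genes passed, and DESeq2 called 0. The count was 4 without wild type day 21 replicate 1 (5.24% of all genes) and 1 without knockout day 21 replicate 1 (1.65%), and, given Sesn2, no direction is drawn from these labels.

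**Figure D5:**
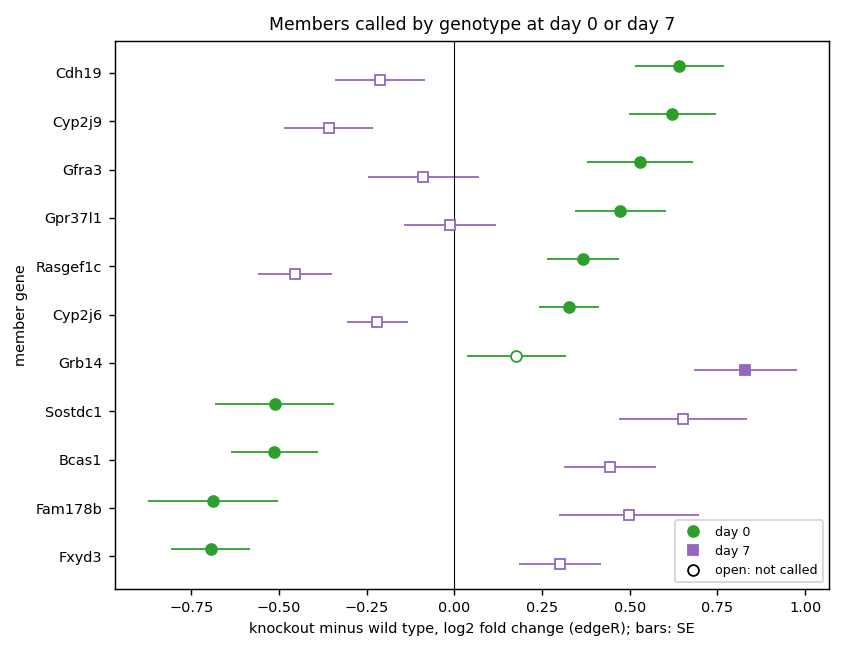
Knockout minus wild type log2 fold change (x axis, bars show SE, edgeR) of 11 of the 12 members called at day 0 (green circles) or day 7 (purple squares); filled symbols passed the adjusted p and open ones did not. Cdh19 stands at 0.64 at day 0 and Grb14 at 0.83 at day 7, and none of the 10 genes called at day 0 has a filled day 7 symbol.

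Pathway lists were counted in the same way, among their genes at 5 TPM or more at day 0. Of 47 such immediate early and stress genes, 15 (31.9%) were lower at day 7 by the same ratio, against 6.24% of all rows at 5 TPM, and none was a member. Other lists had larger shares lower at day 7: lipid transport and sterol handling 41.2% (7 of 17, no member), regulators of G protein signalling and second messengers 39.3% (11 of 28, 1 member), ion channels 39.0% (16 of 41, 2 members) and WNT signalling 35.0% (7 of 20, 1 member). Of 48 such genes of glutathione and xenobiotic metabolism, 11 (22.9%) were lower at day 7 and 2 (4.17%, against 1.14%) were members, Gsta4 and Mgst3. From day 7 to day 21, 28.4% of all genes tested were called higher and 28.4% lower. In that comparison 40 of the 48 immediate early genes rose and none was lower, and 26 of the 55 glutathione genes rose while 14 were lower. The quiescence list had 24 of 46 genes higher and 10 lower, with a median of 0.50. A list of 36 myelin and Schwann cell genes, drawn up after the members had been seen, had 33 at 5 TPM or more at day 0, of which 31 (93.9%) were lower at day 7 and 16 (48.5%) were members, and 35 of the 36 rose from day 7 to day 21, with a median of 1.38. A second added list, of 8 Schwann cell injury genes, had 2 at 5 TPM or more at day 0, of which 1 was lower at day 7 and 0 were members. Its sum, most of it Jun, was 688.5 to 1137 TPM at day 0, 438.6 to 530.2 at day 7 and 972.8 to 1367 at day 21.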

How the data were processed

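RNA of sorted cells was made into SMART-Seq v4 and Nextera XT libraries and sequenced as single-end reads, per the labels' protocols. The authors deposited estimated counts and TPM per gene and a table of batch-corrected regularised log2 values; the batch is not named in the sources used here. The tool kallisto 0.46.1 and the builds mm10 and GRCm38.p6 come from the submitters' processing notes. Estimated counts were rounded and tested with edgeR 4.0.16 (filterByExpr, TMM, robust quasi-likelihood fit, 6 groups, 12 libraries, 6 residual degrees of freedom), with Benjamini-Hochberg adjustment over 15890 genes and calls at adjusted p under 0.05; all 97 members passed the filter. TMM factors ran from 0.915 to 1.09. The median gene's log2 TPM ratio to day 0 was 0.18 at day 7 and 0.09 at day 21, and on CPM it was 0.02 and -0.02. Alternatives used DESeq2 1.42.0 and limma 3.58.1 on log2(TPM + 1), log2(TPM + 0.1) and the batch-corrected values. On simulated data the edgeR step recovered 200 of 200 genes changed by 2 on the log2 scale for day 21 against day 7 (15312 genes) and 198 of 200 for the genotypes at day 0 (15346 genes). It made 8 and 5 false calls. The simulation gave every gene the same fixed dispersion, so it cannot show how well smaller changes are found at the spread of the real libraries. Nothing says the 2 libraries of a group came from separate mice, so p-values measure only the spread between libraries, which may be technical; no pair of libraries was a duplicate, with chi-square per degree of freedom of 9.26 or more.

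The members and gene lists were chosen with earlier results of these data known, and the roles and the list of 36 myelin genes were drawn up after the members' names had been seen. Genes were named as the 10 with the highest ratio, up to 5 called in each direction by adjusted p in each comparison, up to 5 members of each list and the 3 on either side of the ratio threshold; further members were named after their values had been seen, and a few genes are not reported here. Gene models were GENCODE on GRCm38, and 29 members share exon bases with another gene. Members were matched to annotation by gene ID and to RefSeq promoter windows by the GENCODE name of that ID, on the same chromosome and strand. The table's Vmn1r90 is Vmn1r181 there.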

Additional observations from a re-analysis of the deposited data

Results flagged for a closer look

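The knockout difference was tested for a change between day 0 and day 7 in the fit over all genes, a comparison added after the data had been seen; 9 of 97 members passed (edgeR, adjusted p under 0.05), where 13.5% of all genes did. All 9 were among the 11 called at day 0, and that call and this test share the day 0 libraries. In one direction, Cyp2j9 changed by -0.98 (SE 0.178, adjusted p = 0.009), Cdh19 by -0.85, Rasgef1c by -0.82 and Cyp2j6 by -0.55 on the log2 scale. For 4 genes it moved the other way: Fam178b by 1.19, Sostdc1 by 1.16, Fxyd3 by 1.00 (SE 0.162, adjusted p = 0.00603) and Bcas1 by 0.96. What passed is the change between the days: none of these genes was called between the genotypes at day 7 itself. Fxyd3 was at 247, 246, 157 and 134 TPM at day 0 and 21.6, 23.7, 37.3 and 33.9 TPM at day 7, wild type before knockout, so its genotypes were apart on both days in opposite order. Bcas1 overlapped between the genotypes in TPM on both days, and its change was found on counts alone: with limma it was -0.11 on log2(TPM + 1) (adjusted p = 0.726) and 0.014 on the batch-corrected values (adjusted p = 0.970). The count of 9 was 4 without knockout day 0 replicate 2 (3.52% of all genes) and 4 without wild type day 0 replicate 2 (4.24%), and 6 without wild type day 0 replicate 1 (4.21%) or wild type day 7 replicate 1 (4.83%). Cyp2j9, Rasgef1c and Fxyd3 kept the call in every setting run. Cdh19 lost it without knockout day 0 replicate 2, wild type day 0 replicate 2 or wild type day 7 replicate 1. Bcas1 lost it also without either replicate 2 library of day 0. Cyp2j6 lost it without knockout day 0 replicate 2, knockout day 7 replicate 2, wild type day 7 replicate 1 or either wild type day 0 library. Fam178b and Sostdc1 each lost it without any one of the 4 day 0 libraries, Fam178b also without replicate 1 of either genotype at day 7 and Sostdc1 without wild type day 7 replicate 2.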

How the results depend on the processing

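With 2 libraries a group, each count of genotype calls rests on few degrees of freedom, and genes at a few TPM carry larger errors. For day 21 against day 7 the 82 members called became 42 with a log2 change of 1 or more required and 77 to 84 when one library was left out. For the genotypes at day 0, the 11 became 18 on the batch-corrected values, 1 with that size required, 36 with day 0 libraries alone and 20 with days 0 and 7 alone, and 3 to 17 with one library left out. At day 7 the 1 became 8 with DESeq2, 2 with at least 10 counts in every library, 8 on the batch-corrected values, 0 with that size required, 0 with day 7 libraries alone, 13 with days 0 and 7 alone, and 0 to 8 with one library left out; at day 21 by label the 0 became 0 to 4. For the change of the genotype difference from day 0 to day 7, with alternatives chosen after seeing the data, the 9 became 14 with DESeq2, 16 on the batch-corrected values, 18 with days 0 and 7 alone, 9 with the replicate block and 4 to 12 with one library left out. The number of genes that met the rule was 28 at a ratio of 2, 209 at a looser ratio, 172 on TMM-scaled CPM (91 shared with the 97), 159 on TPM rescaled by median-of-ratios factors (97 shared), and 97 to 125 with one library left out. Bcas1 between genotypes at day 0 reversed with limma to 0.0628 on log2(TPM + 1), with and without the filter, and to 0.0634 on log2(TPM + 0.1), and its change to day 7 reversed to -0.109 on log2(TPM + 1). Of 55 results for named genes, 33 lost a call in at least 1 setting and 2 reversed. Libraries share replicate numbers, and correlations of same-number deviations were weak, from -0.143 to 0.070, which cannot exclude pairing by number. At day 21 the number did split Sesn2 alike under both labels. It was at 3.37 and 3.87 TPM in the replicate 1 libraries and 34.1 and 45.7 TPM in the replicate 2 libraries. With the number as a replicate block, members called were 81 for day 21 against day 7, 12 at day 0, 1 at day 7 and 0 at day 21. Causes of these changes were not tested.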
